A study of Mus musculus with 6 samples.

Results

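Lymphoid priming is the onset of lymphoid gene expression in multipotent progenitors, before any cell is committed to the B or T lineage. In the mouse it is most evident in the Flt3-high fraction of LSK cells, which are bone marrow cells negative for lineage antigens and positive for Sca-1 and c-Kit. Cytokine receptors such as Flt3 and the interleukin 7 receptor sustain these progenitors, transcription factors such as Ikaros open lymphoid loci, and terminal transferase and the RAG recombinase appear ahead of antigen receptor rearrangement. The 9 genes described here are Flt3, Il7r, Dntt, Rag1, Rag2, Notch1, Satb1, Ikzf1 and Ccr9. They were chosen by symbol as listed genes of lymphoid-primed multipotent progenitors, and all 9 were found among the 55573 genes of the count table and passed the filter on low counts.

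The libraries, 3 wild-type (Etv6+/+) and 3 mutant, were made from bulk RNA of sorted LSK cells; the donors were C57BL/6J mice, 3 months old, and the tissue was bone marrow. The mutant carries 1 R355X allele of Etv6, an ETS-family transcriptional repressor; its genotype field reads Etv6+/- and the series text names the allele Etv6 R355X/+. No treatment is stated, and the series title places the comparison in the question of how ETV6 controls inflammatory genes and stem and progenitor cell function. Whether each replicate is its own animal is not stated, and the p-values therefore reflect only the variation among these libraries, which may be technical.

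Depth ran from 45194733 to 92151105 expected counts per library and was highest in mutant replicate 1, which also had the highest share of mitochondrial and ribosomal RNA genes (31.2% against 27.1% to 29.1% in the others). Etv6 measured 454, 419 and 400 CPM (counts scaled to a common library size by the trimmed mean of M-values) in wild-type replicates 1, 2 and 3, and 305, 341 and 386 CPM in mutant replicates 1, 2 and 3. The log2 difference, mutant over wild type, was -0.30 (SE 0.086; adjusted p = 0.245, edgeR quasi-likelihood, adjusted by Benjamini-Hochberg over all genes), and the 2 genotypes did not overlap (exact two-sided permutation p = 0.1, the smallest that 3 against 3 allows). The sorting markers Kit and Ly6a were expressed in every library, at 419 ± 33.0 and 85.8 ± 12.2 CPM in wild type (SD, n = 3), and neither passed the test (adjusted p = 0.525 and 0.665, edgeR). Lineage markers were not at 0: summed over 8 neutrophil genes they reached 2561 to 2938 CPM in wild type, and over 12 T cell genes 39.3 to 55.0 CPM.

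The lymphoid priming genes differed among themselves in how the genotypes compared. Rag1 and Rag2 were about 2-fold higher in the mutant, Il7r, Notch1 and Ikzf1 were higher by smaller amounts, Ccr9 was lower, and Flt3, Satb1 and Dntt overlapped between genotypes. None of the 9 passed an adjusted p of 0.05 in edgeR's test, a threshold that 0.266% of all 20646 tested genes passed (0.189% higher and 0.0775% lower). At an unadjusted p under 0.05 there were 6 of the 9, 5 higher and 1 lower in the mutant, where 10.6% of all tested genes were past it, 5.83% higher and 4.80% lower. The same 6 genes had values that did not overlap between genotypes, against 16.3% of all tested genes (8.45% higher and 7.84% lower). The log2 fold change was above 0 for 7 of the 9, against 50.6% of all tested genes. The median log2 fold change was 0.24 over the 9 genes and 0.0019 over all tested genes, and the median over the 9 was 0.085 without mutant replicate 1. In bulk RNA a change in the number of cells that express a gene and a change in RNA per cell cannot be told apart.

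**Figure D1:**
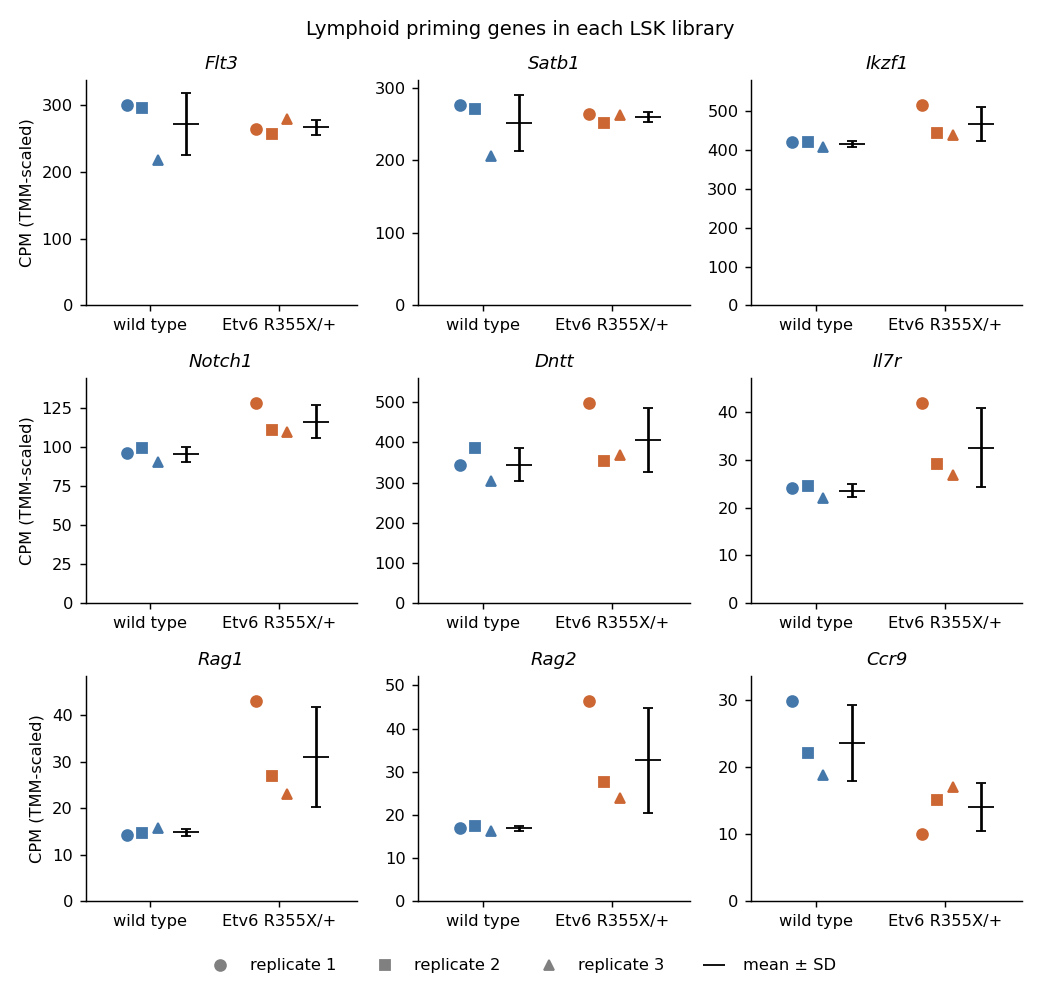
CPM of the 9 lymphoid priming genes (vertical axes from 0, 1 panel per gene) in 3 wild-type (blue) and 3 Etv6 R355X/+ (orange) libraries; symbols mark replicates 1 to 3, and bars the mean ± SD of each genotype. Rag1 and Rag2 lie between 14.3 and 17.4 CPM in all wild-type libraries and from 23.0 to 46.5 CPM in the mutant, while the Flt3 and Satb1 values of the genotypes overlap.

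Rag1 and Rag2 encode the subunits of the recombinase that cuts antigen receptor genes at recombination signals. They are neighbours on chromosome 2 in mm10, Rag1 at chr2:101638282-101649501 on the minus strand and Rag2 at chr2:101624718-101632529 on the plus strand. Their promoter windows (RefSeq, GRCm38.p6, 250 bases before to 50 after the start, written along the gene's strand) are shown because the pair was the furthest apart between genotypes. Capitals mark GGAA or its complement TTCC, the core bound by ETS-family proteins such as ETV6.
Rag1, chr2:101649483-101649782, minus strand: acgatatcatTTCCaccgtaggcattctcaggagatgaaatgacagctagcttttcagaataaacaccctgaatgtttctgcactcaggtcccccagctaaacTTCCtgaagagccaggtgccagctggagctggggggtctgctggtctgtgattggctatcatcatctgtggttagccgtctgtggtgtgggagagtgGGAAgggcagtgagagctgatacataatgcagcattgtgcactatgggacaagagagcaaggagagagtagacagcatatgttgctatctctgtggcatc
Rag2, chr2:101624462-101624761, plus strand: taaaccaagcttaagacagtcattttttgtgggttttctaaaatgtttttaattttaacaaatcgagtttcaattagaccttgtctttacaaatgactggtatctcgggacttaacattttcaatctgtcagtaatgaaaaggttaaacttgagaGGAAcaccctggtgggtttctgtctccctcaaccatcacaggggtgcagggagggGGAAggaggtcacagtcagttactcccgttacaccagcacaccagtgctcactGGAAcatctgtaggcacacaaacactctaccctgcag
Each of these windows held 3 matches to the core, which is present in 96.0% of all 32851 promoter windows of this length. The longer ETS sequence CCGGAA, searched on both strands, was in none of the 14 windows of the 9 genes and in 14.9% of all windows. The Rag1 window also held the E-box CAGGTG with its first base at -135 from the start, as did 20.2% of all windows, and the Ikaros-type sequence TGGGAA at -52, as did 25.6%. That TGGGAA overlaps 1 of the marked cores. A match is a description of the letters only.

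Rag1 measured 14.3, 14.6 and 15.7 CPM in wild-type replicates 1, 2 and 3 and 43.1, 27.0 and 23.0 CPM in mutant replicates 1, 2 and 3. Every mutant library lay above every wild-type library, and mutant replicate 1 stood well above the other two. The fold change was 2.09 (95% interval 1.55 to 2.82; log2 1.07, SE 0.19), with an unadjusted p of 0.000212 and an adjusted p of 0.0617 in edgeR's test, just outside the threshold. Without mutant replicate 1 the log2 fold change was 0.75 and passed (adjusted p = 0.0470), and without mutant replicate 3 it was 1.24 and passed too (adjusted p = 0.0215). It did not pass without wild-type replicate 1, 2 or 3 or mutant replicate 2 (adjusted p = 0.228, 0.256, 0.109 and 0.122, edgeR). DESeq2 called Rag1 (adjusted p = 1.07e-06), whereas limma-voom did not (adjusted p = 0.114).

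Rag2 stood at 16.9, 17.4 and 16.4 CPM in the wild-type libraries and at 46.5, 27.7 and 23.9 CPM in the mutant ones, with the libraries in the same order within the mutant as for Rag1. The fold change was 1.94 (95% interval 1.42 to 2.64), with an adjusted p of 0.113 in edgeR's test, and the log2 fold change went from 0.95 to 0.61 without mutant replicate 1. Reads of Rag1 stood at 0.838 to 0.957 of those of Rag2 in wild type and 0.928 to 0.975 in the mutant, and the genotypes overlapped in this proportion (exact permutation p = 0.2, adjusted p = 0.25 over 5 read ratios). The counts are not split by strand, and the gene B230118H07Rik overlaps both loci; its exons cover 80 of the 6608 exonic bases of Rag1 and 208 of the 3424 of Rag2. Its level was 21.4 ± 1.51 CPM for wild type and 23.7 ± 1.52 CPM for the mutant (SD, n = 3; log2 fold change 0.15, adjusted p = 0.633, edgeR).

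Dntt encodes terminal deoxynucleotidyl transferase, which adds untemplated bases at the junctions that RAG cutting opens. It stood at 344, 385 and 303 CPM in the wild-type libraries and at 498, 353 and 369 CPM in the mutant ones. Mutant replicate 1 was the highest library, and the other two mutant libraries fell within the wild-type range. The fold change of 1.18 did not pass (95% interval 0.974 to 1.43; adjusted p = 0.544, edgeR), and its log2 value went from 0.24 to 0.069 without mutant replicate 1. A difference of up to 1.43-fold is thus within the error.

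Flt3 encodes the receptor tyrosine kinase for FLT3 ligand and is the surface receptor used to define lymphoid-primed LSK cells. It stood at 301, 296 and 219 CPM in the wild-type libraries and at 265, 257 and 280 CPM in the mutant ones. All 3 mutant libraries lay inside the wild-type range, which was widened by the low wild-type replicate 3. The fold change was 0.983 (95% interval 0.836 to 1.16; adjusted p = 0.964, edgeR), and its sign turned with the library left out, from -0.16 without wild-type replicate 3 to 0.056 without wild-type replicate 1 on the log2 scale.

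Il7r encodes the alpha chain of the interleukin 7 receptor, which is low on most LSK cells and rises on common lymphoid progenitors. It stood at 24.0, 24.5 and 22.0 CPM in the wild-type libraries and at 41.8, 29.0 and 26.7 CPM in the mutant ones. The genotypes did not overlap, though mutant replicate 3 was only slightly above the highest wild-type library. The fold change was 1.39 (95% interval 1.10 to 1.74; unadjusted p = 0.00928, adjusted p = 0.296, edgeR), and the log2 value went from 0.47 to 0.25 without mutant replicate 1. The ratio of Rag1 to Flt3 reads was 0.0477 to 0.0718 in wild type and 0.0823 to 0.163 in the mutant and did not overlap, while that of Il7r to Flt3 reads overlapped (exact permutation p = 0.1 and 0.2, both 0.25 when adjusted over the 5 read ratios computed).

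Ccr9 encodes the receptor for the chemokine CCL25 and guides progenitors to the thymus; it is also a marker of plasmacytoid dendritic cells. It was the single gene of the 9 below wild type with values that did not overlap, at 29.9, 22.0 and 18.8 CPM in the wild-type libraries and at 9.98, 15.2 and 17.0 CPM in the mutant ones. Mutant replicate 1, the highest library for Rag1, Rag2, Il7r and Dntt, was the lowest for Ccr9. The fold change was 0.593 (95% interval 0.432 to 0.813; unadjusted p = 0.00399, adjusted p = 0.222, edgeR), and the log2 value of -0.75 was -0.54 without wild-type replicate 1. DESeq2 called the gene (adjusted p = 0.00728), whereas limma-voom did not (adjusted p = 0.194). Nor did edgeR with any single library left out (adjusted p from 0.146 to 0.511).

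The promoter window of Ccr9 (RefSeq, GRCm38.p6) is shown for contrast with the Rag pair, since the gene differed in the opposite direction; capitals again mark GGAA or TTCC.
Ccr9, chr9:123766961-123767260, plus strand: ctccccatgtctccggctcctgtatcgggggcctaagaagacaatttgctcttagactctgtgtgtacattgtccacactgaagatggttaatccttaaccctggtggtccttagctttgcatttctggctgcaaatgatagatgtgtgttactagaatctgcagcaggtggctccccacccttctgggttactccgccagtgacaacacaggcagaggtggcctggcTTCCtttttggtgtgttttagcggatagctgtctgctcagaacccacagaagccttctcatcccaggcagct
It held 1 match to the ETS core and the E-box CAGGTG at -85. Ccr9 itself spans chr9:123678439-123784330 in the annotation, and 2201 of its 10260 exonic bases lie in exons of other genes, so its counts depend partly on how shared reads were split. Lztfl1, the most abundant tested gene overlapping it, was at 49.5 ± 9.003 CPM for wild type and 46.5 ± 4.43 CPM for the mutant (SD, n = 3; log2 fold change -0.091, adjusted p = 0.848, edgeR). Of the marker genes of plasmacytoid dendritic cells, 4 of 7 were above wild type and 3 below: the sialic acid-binding lectin gene Siglech measured 7.24 ± 2.09 and 3.89 ± 1.23 CPM and Pacsin1 0.931 ± 0.167 and 1.71 ± 0.397 CPM (adjusted p = 0.252 and 0.294, edgeR). Their median log2 fold change was 0.16, and 0.033 without mutant replicate 1. Their sum was 40.2 to 50.3 CPM in wild type and 42.8 to 52.1 CPM in the mutant, and none of the 7 was at 0 in all libraries. Ly6d, among the 4 higher genes, is also counted with the progenitor transcripts described below. Of 12 T cell markers 6 were above and 6 below wild type (median 0.031), and without mutant replicate 1 there were 4 above (median -0.17). Cd4, the T cell marker of smallest p, was lower with values that did not overlap, 5.38 ± 2.00 and 2.40 ± 0.356 CPM (adjusted p = 0.132, edgeR), and the sum over the 12 markers overlapped at 39.3 to 55.0 and 40.0 to 48.7 CPM. The part of such cells in the Ccr9 difference was not tested.

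Notch1 encodes the receptor whose cleaved intracellular domain drives T lineage fate. It stood at 96.1, 99.5 and 90.1 CPM in the wild-type libraries and at 128, 110 and 110 CPM in the mutant ones, with no overlap. The fold change was 1.22 (95% interval 1.09 to 1.37; unadjusted p = 0.00290, adjusted p = 0.208, edgeR), and DESeq2 called it (adjusted p = 0.0451). It was not called by limma-voom (adjusted p = 0.207) or by edgeR with any single library left out (adjusted p from 0.161 to 0.453). The log2 value of Notch1 was 0.29, and 0.21 without mutant replicate 1. Of the 14232 exonic bases of Notch1, 1389 lie in exons of other genes, so its counts depend partly on how shared reads were split. Gm13568, the most abundant tested gene overlapping Notch1, was also higher, at 6.29 ± 0.496 and 8.19 ± 1.70 CPM (SD, n = 3; adjusted p = 0.456, edgeR). Ikzf1, which encodes Ikaros, a zinc-finger factor that lymphoid development requires, stood at 419, 420 and 405 CPM in the wild-type libraries and at 515, 441 and 438 CPM in the mutant ones. The genotypes did not overlap, but the fold change was small at 1.12 (95% interval 1.00 to 1.25; unadjusted p = 0.0421, adjusted p = 0.452, edgeR), and its log2 value went from 0.16 to 0.085 without mutant replicate 1. Satb1, a chromatin organizer of lymphoid progenitors, stood at 276, 271 and 206 CPM in the wild-type libraries and at 263, 251 and 263 CPM in the mutant ones. As for Flt3, wild-type replicate 3 was low and the mutant libraries lay within the wild-type range (fold change 1.03, 95% interval 0.887 to 1.20; adjusted p = 0.918, edgeR).

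**Figure D2:**
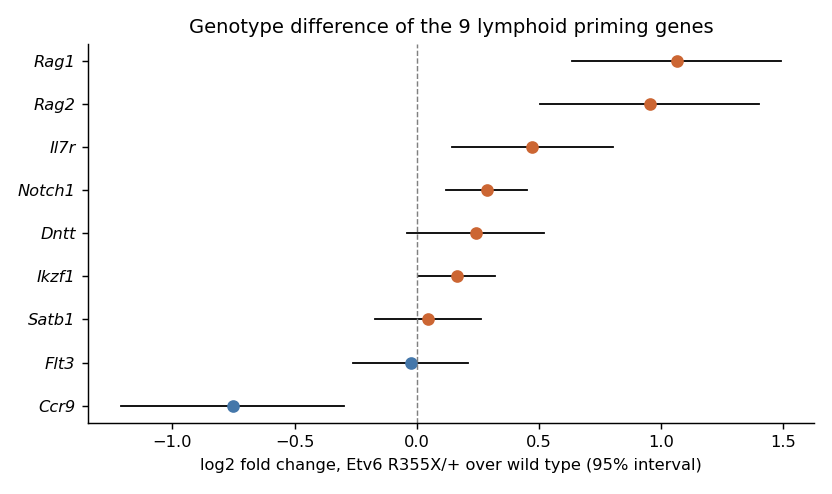
Log2 fold change of each lymphoid priming gene, Etv6 R355X/+ over wild type (horizontal axis), with points at the estimate and lines for the 95% interval of the fit. Intervals exclude 0 for Rag1, Rag2, Il7r, Notch1, Ikzf1 and Ccr9, before any adjustment for the 20646 genes tested, and the Rag1 estimate of 1.07 is the highest.

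Set per length, as CPM per kilobase of merged exons, Dntt was the most abundant of the 9 genes in wild type at 150 ± 17.9, followed by Ikzf1 at 71.8 ± 1.42, Flt3 at 44.0 ± 7.47 and Satb1 at 13.2 ± 2.05 (SD, n = 3). Notch1 at 6.69 ± 0.333 came next. Il7r and Rag2, at 5.04 ± 0.287 and 4.94 ± 0.153, did not differ beyond their spread, nor did Ccr9 and Rag1, at 2.30 ± 0.556 and 2.25 ± 0.109. In the mutant the first 4 kept their order. Rag2 averaged 9.54 ± 3.53, Notch1 8.16 ± 0.731 and Il7r 6.97 ± 1.75, which overlapped, and Rag1 at 4.70 ± 1.61 stood above Ccr9 at 1.37 ± 0.353 in every mutant library. These levels depend on the merged exon length, which ranges from 2.292 kb for Dntt to 19.027 kb for Satb1.

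The libraries ordered the genes in a recurring way. Mutant replicate 1 was the highest library for 6 of the 9 genes, against 24.4% of all tested genes, and wild-type replicate 3 was the lowest for 7, against 18.4%. Relative to the wild-type mean, Rag1 stood at 2.90, 1.81 and 1.55 in mutant replicates 1, 2 and 3, Rag2 at 2.75, 1.64 and 1.41, and Il7r at 1.78, 1.24 and 1.14. The coefficient of variation of Rag1 was 4.84% in wild type and 34.3% in the mutant, and that of Flt3 17.0% and 4.24%. Among mutant libraries the Etv6 level ran the other way, lowest in replicate 1 and highest in replicate 3. Whether these levels are related was not tested.

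Cells of the early B lineage express Rag1, Rag2, Il7r and Dntt, and their markers were higher in the same mutant libraries. All 10 pro-B and pre-B cell genes were above wild type (median 1.03 on the log2 scale), and all 10 had an unadjusted p under 0.05, but none passed the adjusted threshold in edgeR's test. Their summed level was 111 to 148 CPM in wild type and 158 to 358 CPM in the mutant, highest in mutant replicate 1 and lowest in mutant replicate 3, and none of the 10 was at 0. The surrogate light chain gene Vpreb1 measured 6.42 ± 1.01 and 16.1 ± 8.03 CPM, the related gene Vpreb3 9.09 ± 1.33 and 19.8 ± 8.70 CPM, and Pax5, the B lineage commitment factor, 20.9 ± 3.56 and 44.8 ± 20.4 CPM (SD, n = 3; adjusted p = 0.135, 0.163 and 0.168, edgeR). Without mutant replicate 1 the median of the list was 0.63, and 8 of the 10 had an unadjusted p under 0.05.

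Rag1 reads stood at 0.106 to 0.131 of the summed pro-B and pre-B markers in wild type and 0.120 to 0.146 in the mutant, which overlapped (exact permutation p = 0.4, adjusted p = 0.4). The proportion of Il7r reads to that sum was 0.148 to 0.220 in wild type and 0.117 to 0.169 in the mutant (exact permutation p = 0.2, adjusted p = 0.25). Markers of mature B and plasma cells were above wild type in 8 of 9, with a median of 0.27 (6 of 9 and 0.079 without mutant replicate 1), and had sums of 235 to 314 CPM in wild type and 252 to 445 CPM in the mutant, which overlapped. The part of B lineage cells in the Rag1, Rag2 and Il7r differences was not tested.

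**Figure D3:**
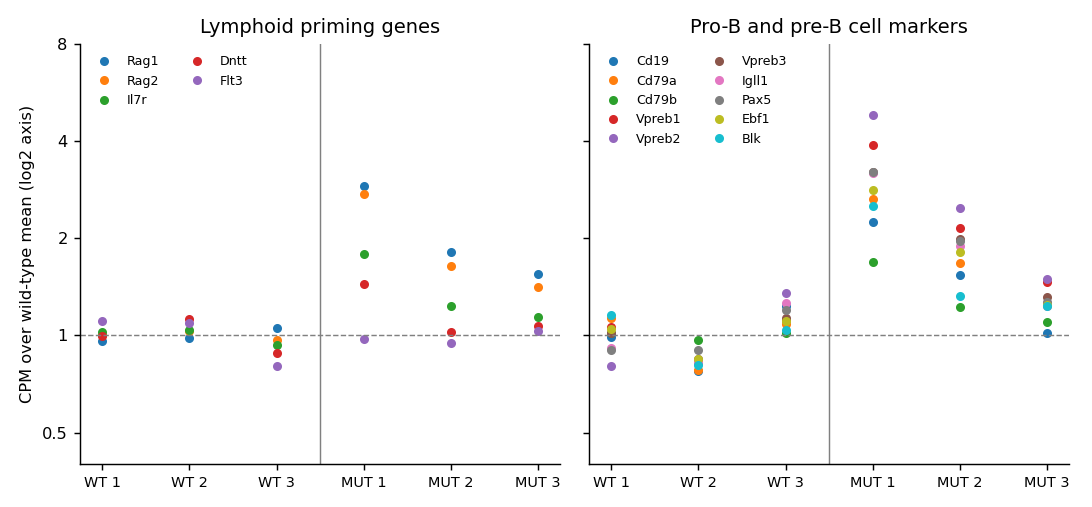
CPM of each gene over its wild-type mean (log2 axis) in the 3 wild-type (WT) and 3 Etv6 R355X/+ (MUT) libraries, for 5 lymphoid priming genes (left) and 10 pro-B and pre-B cell markers (right). Rag1 stands at 2.90, 1.81 and 1.55 in mutant replicates 1, 2 and 3, and all 10 B lineage markers show the same order of mutant libraries, while Flt3 in the mutant libraries lies between 0.947 and 1.03.

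The genes with the pattern most like Rag1 were found by the root mean square difference of log2 CPM, each gene centred on its own mean over the 6 libraries, among 10011 genes with a mean of at least 5 CPM. They were Rag2 (0.089), the calponin gene Cnn3 (0.12), the B cell adaptor gene Blnk (0.14), the kinase anchor gene Akap12 (0.14) and the early B cell factor gene Ebf1 (0.15), where the median gene differed by 0.59. Cnn3 rose from 16.7 ± 1.37 to 31.6 ± 7.22 CPM and passed the adjusted threshold (adjusted p = 0.0338, edgeR). It did not pass with limma-voom (adjusted p = 0.0592), nor in 4 of the 6 fits with a single library left out, those without wild-type replicate 1, 2 or 3 or mutant replicate 2 (adjusted p = 0.137, 0.183, 0.0579 and 0.0793). Blnk measured 17.1 ± 1.15 and 34.7 ± 17.1 CPM, and Ebf1 23.4 ± 3.20 and 46.0 ± 18.8 CPM. For Dntt the nearest genes were Ptp4a3, Uqcc2, Hacd1, Arpp21 and F11r, at 0.054 to 0.067 against a median of 0.24, and none of these 5 passed the adjusted threshold.

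Among 26 lymphoid transcription factors other than the 9 genes, 20 were above wild type and 6 below, their median difference being 0.056 (log2), and none passed the adjusted threshold in edgeR's test. At an unadjusted p under 0.05 there were 7 higher and 1 lower, and without mutant replicate 1 there were 3 higher and 2 lower. The B lineage pair Pax5 and Ebf1, also counted among the pro-B and pre-B cell markers, was the furthest apart (log2 1.11 and 0.98). Mef2c, which promotes lymphoid over myeloid fate, measured 297 ± 30.1 and 350 ± 11.0 CPM, and Foxo1, an activator of the Rag genes and of Il7r in the B lineage, 31.2 ± 2.11 and 39.3 ± 6.43 CPM (adjusted p = 0.306 and 0.335, edgeR).

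Of 17 other surface and early transcripts of lymphoid-primed progenitors, 12 were above wild type (median 0.14), and Cnn3 alone passed the adjusted threshold, a call lost under limma-voom. At an unadjusted p under 0.05 there were 5 higher and 1 lower. The leukocyte actin-binding gene Lsp1 measured 47.3 ± 3.22 and 59.9 ± 2.32 CPM, and Ly6d, which marks B-biased lymphoid progenitors, 5.09 ± 0.421 and 7.68 ± 2.12 CPM (adjusted p = 0.111 and 0.325, edgeR). Ighm, the mu heavy chain locus whose transcripts precede rearrangement, measured 1688 ± 427 and 2282 ± 197 CPM (adjusted p = 0.335, edgeR). The median of the list was 0.046 without mutant replicate 1.

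Ligands, receptor partners and signal transducers of Flt3 and Il7r were near wild type for the most part. Of 22 genes of FLT3 and IL-7 receptor signalling, 9 were above and 13 below wild type (median -0.028), 0 passed the adjusted threshold, and 2 had an unadjusted p under 0.05, both lower. They were the docking protein gene Gab2, at 40.1 ± 1.59 and 31.6 ± 4.90 CPM, and the feedback inhibitor gene Socs2, at 6.08 ± 1.62 and 4.13 ± 0.610 CPM (adjusted p = 0.279 and 0.399, edgeR). The ligand gene Flt3l measured 10.1 ± 1.14 and 12.4 ± 1.72 CPM (adjusted p = 0.487, edgeR).

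Of 35 genes of the Notch pathway, 32 were tested; Dll3, Dll4 and Ptcra did not pass the filter on low counts. There were 18 above and 14 below wild type (median 0.023; 15 above and a median of -0.015 without mutant replicate 1), 0 passed, and 2 were higher and 1 lower at an unadjusted p under 0.05. Dtx1, a ubiquitin ligase gene that Notch induces, measured 0.386 ± 0.196 and 1.17 ± 0.371 CPM, and the coactivator gene Maml2 31.3 ± 4.75 and 38.0 ± 1.29 CPM (adjusted p = 0.212 and 0.396, edgeR). Il2ra, a receptor chain gene of early T cell precursors, measured 1.43 ± 0.272 and 0.936 ± 0.0926 CPM (adjusted p = 0.457, edgeR). The Dtx1 difference rests on a transcript near 1 CPM.

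The repair machinery that completes V(D)J recombination acts after RAG cutting. Of its 17 genes, 10 were above and 7 below wild type (median 0.011), 0 passed, and 1 had an unadjusted p under 0.05: Xrcc5, which encodes the Ku80 end-binding protein, at 22.3 ± 1.39 and 26.1 ± 0.455 CPM (log2 0.22, adjusted p = 0.406, edgeR). The ligase gene Lig4 measured 3.96 ± 0.513 and 4.96 ± 1.02 CPM (log2 0.33, overlapping). A list of 17 genes held Ikaros and SATB relatives, genes of the NuRD chromatin complex, and the chromatin regulator genes Smarca4 and Ctbp1. Of these 17, 9 were above and 8 below (median 0.00048), and 6 were above without mutant replicate 1 (median -0.057). In edgeR's test 0 were past the adjusted threshold and 0 had an unadjusted p under 0.05.

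Genes of thymus homing other than Ccr9 went both ways. Of 10, 8 were above and 2 below wild type (median 0.16), 0 passed the adjusted threshold, and 4 were higher and 2 lower at an unadjusted p under 0.05. Without mutant replicate 1 these were 1 higher and 2 lower, and the median was 0.10. The integrin gene Itgb7 measured 14.6 ± 1.47 and 25.0 ± 6.74 CPM and the chemokine receptor gene Cxcr4 40.7 ± 4.92 and 49.6 ± 4.79 CPM (adjusted p = 0.130 and 0.349, edgeR). The adhesion receptor genes Cd44, at 246 ± 9.01 and 219 ± 10.04 CPM, and Itgb1, at 158 ± 2.08 and 141 ± 6.11 CPM, were lower without overlap (adjusted p = 0.366 and 0.378, edgeR). Ccr9 was thus lower while Itgb7 was higher, with neither past the adjusted threshold.

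**Figure D4:**
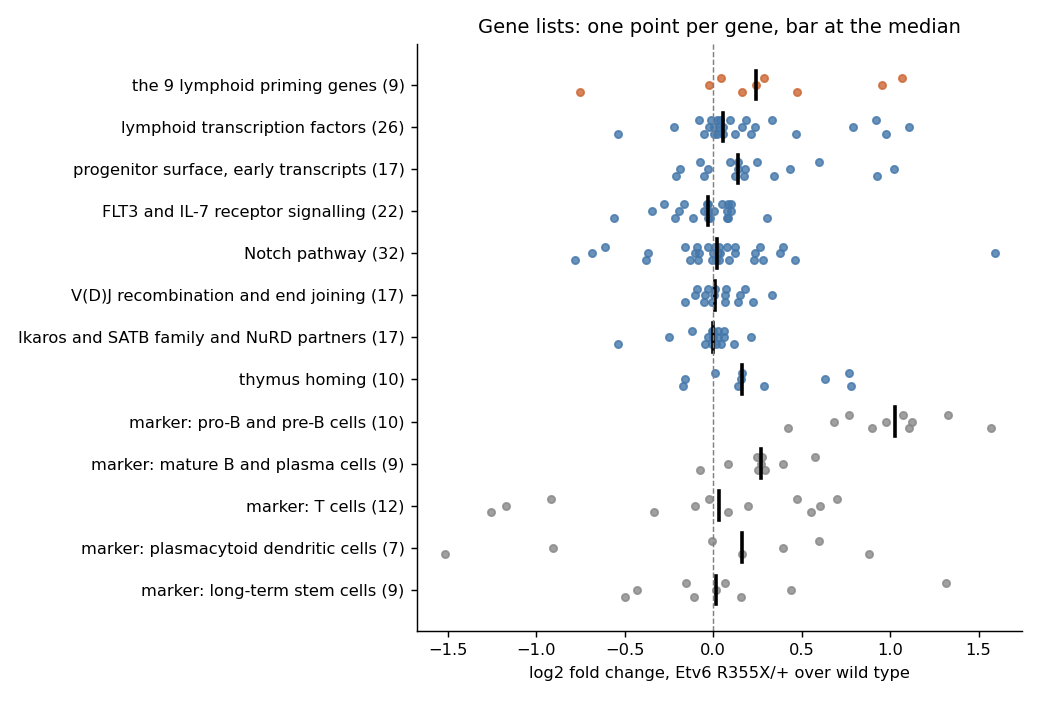
Log2 fold change, Etv6 R355X/+ over wild type (horizontal axis), of the tested genes of each list; each point is a gene, the bar is the list's median, and the number in brackets is the count of tested genes. The pro-B and pre-B cell markers have a median of 1.03, while the medians of the Notch, recombination repair and Ikaros-partner lists lie between 0.00048 and 0.023.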

How the data were processed

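Expected counts, not scaled, were deposited by the authors as 1 gene table for the 6 libraries. The submitters' processing notes name Trim Galore 0.60, RSEM 1.31 and STAR 2.7, with no order, and the build mm10. The annotation release is not given in the sources used here. Per the labels' protocols, c-Kit+ cells were bead-enriched and sorted, and total RNA was amplified by single-primer isothermal amplification and sheared. The deposited table is marked as unstranded, so reads of a gene and of an antisense partner cannot be told apart. Expected counts share out reads between overlapping or similar genes.

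The 92 spike-in rows, at 0, were left out, expected counts were rounded, filterByExpr kept 20646 genes, and TMM scaling was used. Genotypes were compared with edgeR 4.0.16 (quasi-likelihood, two-sided, no covariates; R 4.3.3), Benjamini-Hochberg adjusted over all tested genes at a threshold of 0.05. Intervals use the fit's SE and degrees of freedom at the 95% level. CPM are TMM-scaled. Depth gave at least 714 expected counts per library for each of the 9 genes. Lengths and positions come from GENCODE M21, and promoters from RefSeq. The scripts were tested on simulated data in 3 draws, with 200 genes per draw set to differ. Of these genes 34.3% were recovered at 1.5-fold, 56.7% at 2-fold and 85.4% at 4-fold. False calls made up 13.7% of all calls, above the nominal share set by the adjusted threshold of 0.05. DESeq2 1.42.0, limma-voom 3.58.1, other scalings and filters, a replicate block and leaving out libraries were alternatives; a fit lacking both mutant replicate 1 and wild-type replicate 3 was chosen after seeing the data.

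Genes and lists were chosen with earlier results of these data known. The naming rule takes the 9 genes, Etv6, the sorting markers, the genes of each pathway list past the threshold with up to 4 others of smallest p, up to 3 per marker list, and the 5 genes most like Rag1 and Dntt in log2 CPM (prior count 0.5). Lztfl1, B230118H07Rik and Gm13568 were named as overlapping genes. No 2 libraries of a genotype were alike within counting error.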

Additional observations from a re-analysis of the deposited data

How the results depend on the processing

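The number of genes past the adjusted threshold was 55 of 20646 tested in the reported fit and 325 of 20646 with DESeq2. It was 527 of 33271 with no filter beyond 1 read, 59 of 20646 with library size alone, and 16 to 67 with a single library left out. With both mutant replicate 1 and wild-type replicate 3 left out it was 56 of 20798. Of the 9 lymphoid priming genes 0 passed; 3 passed with DESeq2 (Rag1, Notch1 and Ccr9), 5 with no filter beyond 1 read (these 3, Rag2 and Il7r), 1 with library size alone (Rag1), 1 with both mutant replicate 1 and wild-type replicate 3 left out (Rag1), and 0 to 2 with a single library left out. The count of these genes at an unadjusted p under 0.05, 6 in the reported fit, was 5 to 7 in all alternatives run. The share of all tested genes past it in those alternatives was 7.32% to 12.4%. Etv6 passed with DESeq2 (log2 -0.31) and with no filter beyond 1 read (log2 -0.30). The direction of 3 genes depended on the libraries. Flt3 ran from -0.16 to 0.056 on the log2 scale and Satb1 from -0.079 to 0.12 with a single library left out. With both doubted libraries left out Flt3 was -0.15, Satb1 -0.090 and Dntt -0.014. For Flt3 the unadjusted p was 0.0312 without wild-type replicate 3 and 0.0258 with both left out (adjusted p = 0.443 and 0.438, edgeR). The cause of these shifts was not tested. Same-numbered libraries had correlations of deviations of -0.019, -0.014 and -0.069, and no library correlated best with its own number. The replicate numbers thus showed no sign of pairing the samples, but 3 libraries a genotype are too few to exclude it. With the replicate block 32 genes and 0 of the 9 passed, and Cnn3 did not (adjusted p = 0.0618, edgeR). With 3 libraries a genotype, the 95% interval of Flt3 spans 0.836 to 1.16-fold, so a Flt3 difference within that range is not excluded.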

Other observations

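Markers of other lineages and of long-term stem cells differed between genotypes in part. All 8 natural killer cell genes were above wild type (median log2 fold change 0.86), and Klrb1c, an activating receptor gene, rose from 1.46 ± 0.423 to 5.18 ± 1.09 CPM (SD, n = 3; adjusted p = 0.0177, edgeR). Without mutant replicate 1 the median was 0.20 and Klrb1c did not pass (adjusted p = 0.0648), nor did it without wild-type replicate 2 or mutant replicate 2 (adjusted p = 0.107 and 0.0610). The beta-globin genes Hbb-bt and Hbb-bs rose from 18.1 ± 2.75 to 78.5 ± 22.7 CPM and from 29.5 ± 4.65 to 70.4 ± 21.5 CPM (adjusted p = 0.00213 and 0.0312, edgeR), and these near-identical copies can share reads. Hbb-bt passed in all 16 alternatives, while Hbb-bs was lost with limma-voom (adjusted p = 0.0592) and when any single library other than mutant replicate 3 was left out (adjusted p from 0.0717 to 0.150). Over all 8 erythroid genes 6 were above wild type (median 0.059), and 2 without mutant replicate 1 (median -0.23). The 5 mast cell and basophil genes were all above wild type (median 0.57), with Fcer1a, an IgE receptor chain gene, rising from 0.499 ± 0.0776 to 2.49 ± 0.380 CPM (adjusted p = 0.00522, edgeR). Of 8 macrophage genes 6 were above wild type (median 0.51), as were 4 of 5 megakaryocyte genes (median 0.29) and 5 of 8 neutrophil genes (median 0.058). In these 3 lists 0 passed edgeR's adjusted threshold, and 5, 1 and 0 had an unadjusted p under 0.05. Without mutant replicate 1 the macrophage median was 0.26, and 2 of 5 megakaryocyte genes (median -0.022) and 0 of 8 neutrophil genes (median -0.15) were above wild type. The mast cell and basophil median was then 0.34. Among 9 long-term stem cell genes, 5 were above and 4 below wild type (median 0.016), and Fgd5 rose from 9.82 ± 1.12 to 24.5 ± 2.63 CPM (adjusted p = 0.00213, edgeR). Fcer1a and Fgd5 passed in all 16 alternatives.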
